A study of Homo sapiens with 9 samples.

Results

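The regions described here are 7943 sites at which ZNF143, CTCF and the cohesin subunit RAD21 all had a peak in wild-type cells, and which after 24 h of auxin had a CTCF peak but no ZNF143 peak in cells carrying degradable CTCF. They were chosen by the overlaps of each wild-type ZNF143 peak on chromosomes 1 to 22 and X with 4 other peak lists: a wild-type CTCF peak, a wild-type RAD21 peak and a 24 h CTCF peak had to share at least 1 bp with it, and no 24 h ZNF143 peak could. They make up 30.4% of the 26102 sites where the wild-type peaks of all 3 proteins overlapped, called triple sites below, and 21.6% of all 36770 wild-type ZNF143 peaks. They are called CTCF-only sites, for what remained in the 24 h lists. The other triple sites were 5221 with both peaks at 24 h (both-factor sites, 14.2% of all wild-type ZNF143 peaks), 12213 with neither (33.2%) and 725 with ZNF143 alone (1.97%).

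Binding was measured by ChIP-nexus, in which exonucleases trim immunoprecipitated DNA to the border of the crosslinked protein, in HEC-1-B, a cell line from a human adenocarcinoma of the uterus. Unmodified wild-type cells were assayed for ZNF143, CTCF and RAD21, and ZNF143KO cells, labelled as a knockout of ZNF143, for CTCF and RAD21. CTCF-AID cells, in which CTCF carries an auxin-inducible degron, were assayed for ZNF143 and CTCF at 0 h and 24 h of auxin (IAA, 500 μM), and TIR1, the receptor that couples auxin to degradation, is named in the labels' treatment protocol. Each of the 9 groups is 1 library, and the labels do not say whether a derived line is 1 clone, so no difference between conditions below has a replicate check or a test. Loss of ZNF143 and degradation of CTCF were taken from the labels. A ZNF143 library of the knockout cells and a RAD21 library of the auxin series were not analysed here.

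CTCF is a zinc-finger protein that binds a long motif and stops the cohesin ring as it extrudes chromatin loops, which places cohesin at one edge of CTCF sites. RAD21 is the cleavable subunit that closes the cohesin ring. ZNF143 is a zinc-finger activator that binds its own motif, mostly at promoters, and it is also found in chromatin immunoprecipitation at many CTCF and cohesin sites. In an auxin degron line the added hormone recruits the tagged protein to an E3 ubiquitin ligase through TIR1, and the proteasome then destroys it.

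The libraries were not equally deep. Background density, derived from the deposited enrichment and p-value of each peak, ran from 3.88 reads per kb in the 24 h CTCF library to 26.1 in the knockout RAD21 library. The 24 h and 0 h ZNF143 libraries were close, at 12.1 and 13.5 reads per kb, whereas the 0 h CTCF library had 12.8. The fewest summit reads of any listed peak were 6 in the 24 h ZNF143 list and 4 in the 24 h CTCF list. More are needed over a higher local background, so a missing peak does not show that the protein was absent. Enrichment is the authors' fold value of summit reads over local background, and it is compared below between sets of sites within a list, never between lists.

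At the CTCF-only sites the 24 h CTCF peaks were weaker at the median than that list as a whole. Their enrichment had a median of 7.90 (interquartile range 6.55 to 9.52, lowest 2.73, highest 26.1), carried by a median of 8 summit reads (interquartile range 7 to 11) over a local background of 0.170 reads. These peaks were 64 bp wide at the median and stood at the 40.1 percentile of the 24 h CTCF list. In the same list the both-factor sites had a median enrichment of 10.3, 13 summit reads, 91 bp and a percentile of 71.3. Because the 24 h lists chose both sets, this is a description of them.

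In the 0 h CTCF list, which the choice did not use, peaks at CTCF-only sites stood at the 73.0 percentile at the median. Enrichment there ran from 5.71 to 34.9 with a median of 21.1, and the median peak held 49 summit reads and was 220 bp wide. Both-factor sites had a median of 23.5 and 61 summit reads in that list. The sites with neither factor at 24 h that had a 0 h CTCF peak, 10010 of 12213, had 13.2 and 24. CTCF-only sites therefore lay between the other sets in 0 h CTCF enrichment, nearer to the both-factor sites, with an interquartile range of 18.5 to 23.6 that did not reach that of the sites with neither factor, 9.70 to 16.9.

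ZNF143 showed the same order. In the wild-type list its enrichment at CTCF-only sites ran from 2.40 to 24.7 with a median of 11.5 and 14 summit reads, against 14.4 and 19 at both-factor sites and 8.37 and 9 at sites with neither. In the 0 h list of CTCF-AID cells the CTCF-only sites that had a peak again had a median of 11.5, with 18 summit reads and a highest value of 24.5. Both-factor sites had 16.4 and 31 summit reads in the 0 h list, and the sites with neither that had a peak had 8.32 and 12. The interquartile ranges of CTCF-only and both-factor sites in the 0 h list, 9.16 to 13.9 and 13.6 to 18.8, overlapped by a narrow margin. At both-factor sites the 24 h ZNF143 peaks had a median enrichment of 8.05, 12 summit reads and a width of 60 bp.

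RAD21 enrichment in wild type had a median of 21.9 at CTCF-only sites (lowest 2.34, highest 30.1), 22.1 at both-factor sites and 17.6 at sites with neither. Summits at or above 90% of the highest read count of that list made up 22.2%, 41.2% and 4.66% of these peaks. High wild-type RAD21 values are thus compressed, most of all at both-factor sites. Wild-type CTCF had medians of 22.2 (lowest 2.37, highest 33.8), 24.0 and 18.9 at the same sets. In the knockout lists CTCF had medians of 21.99, 21.7 and 21.05, and RAD21 of 18.3, 17.0 and 17.8. The knockout medians lie close together. In those lists 53.4% of the CTCF-only sites' CTCF peaks and 76.6% of their RAD21 peaks had summits at or above 90% of the highest read count of the list (the ceiling). These shares were 77.5% and 79.7% at both-factor sites, and 24.6% and 38.1% at sites with neither. High values in the knockout lists are thus compressed, and unevenly between the sets.

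**Figure D1:**
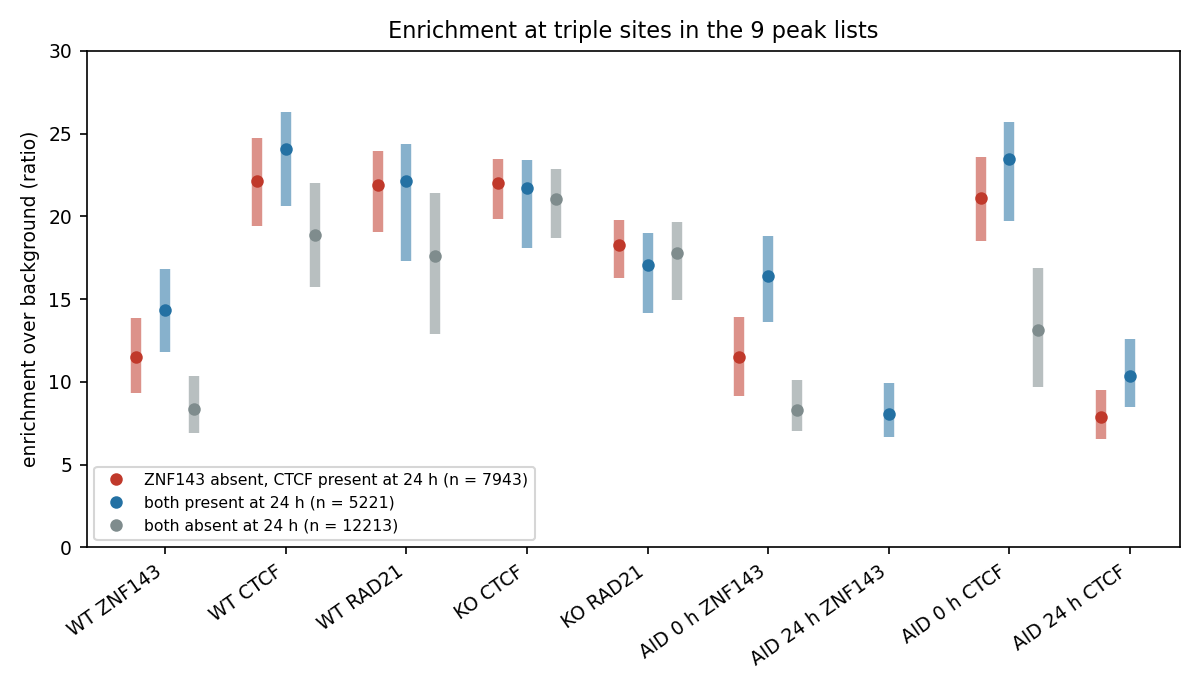
Enrichment over local background, the authors' fold value, of the peaks at the 3 sets of triple sites in each of the 9 lists, with KO for ZNF143KO, and with markers at the median and bars over the interquartile range. CTCF-only sites lie between the other sets for ZNF143 in wild type (median 11.5) and at 0 h (11.5), and near both-factor sites for 0 h CTCF (21.1 and 23.5). Values are to be compared within a list.

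Nearly all of these sites overlapped a peak in the knockout and 0 h CTCF lists, which played no role in the choice. Of the 7943 CTCF-only sites, 7935 had a CTCF peak in ZNF143KO cells (99.90%), where 73.1% of all wild-type ZNF143 peaks had one. RAD21 had a knockout peak at 7933 (99.87%), against 74.5% of all wild-type ZNF143 peaks. CTCF at 0 h was present at 7933 (99.87%), against 65.9%, and ZNF143 at 0 h at 7497 (94.4%), against 73.1%. These percentages for all wild-type ZNF143 peaks include sites without CTCF, so the fairer yardstick is all triple sites, where the shares were 99.3% for knockout CTCF, 99.1% for knockout RAD21, 90.9% for 0 h CTCF and 69.9% for 0 h ZNF143. These shares depend on the length of the lists and on the 1 bp rule. With every list held to its 13865 strongest peaks, 58.3% of the sites that then met the rule had a knockout RAD21 peak and 74.8% a knockout CTCF peak. With an overlap of at least 50% of both peaks the shares were 39.2% and 70.2%, and 17.0% for 0 h CTCF. For the lists the choice used, 73.1% of all wild-type ZNF143 peaks overlapped a wild-type CTCF peak, 72.9% a wild-type RAD21 peak, 36.2% a 24 h ZNF143 peak and 36.1% a 24 h CTCF peak.

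The share with a 0 h ZNF143 peak differed most between the sets. It was 94.4% at CTCF-only sites (exact 95% binomial interval 93.9 to 94.9), 99.8% at both-factor sites and 39.7% at sites with neither factor at 24 h (38.8 to 40.5). CTCF-only sites were thus -5.42 percentage points from both-factor sites (Newcombe 95% interval -5.96 to -4.91) and 54.7 points above sites with neither (53.7 to 55.7). The difference from both-factor sites was not stable: it was -0.14 points (-1.38 to 1.14) with an overlap of at least 50% of both peaks and -26.5 points with lists of equal length. For 0 h CTCF the differences were 0.889 points above both-factor sites (0.629 to 1.20) and 17.9 points above sites with neither (17.2 to 18.6). In the knockout lists CTCF-only sites were 1.18 points above both-factor sites for CTCF and 1.43 points for RAD21, and 0.120 and 0.464 points above sites with neither. The intervals reflect the number of sites alone, since a second library of any group was not analysed here.

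**Figure D2:**
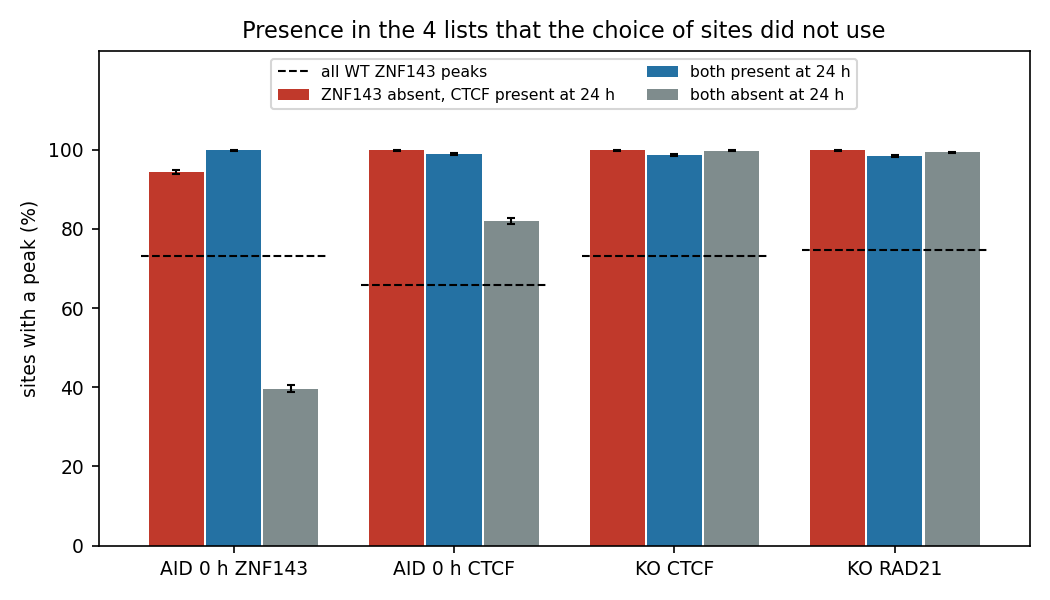
Share of sites (%, with exact 95% binomial intervals) of each set that overlap a peak of the 4 lists not used to choose them, with dashed lines at the share of all wild-type ZNF143 peaks. In the 0 h ZNF143 list the share is 94.4% at CTCF-only sites, 99.8% at both-factor sites and 39.7% at sites with neither, whereas the knockout CTCF and RAD21 shares are above 98% in all 3 sets.

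Within CTCF-AID cells, a ZNF143 peak was listed at 0 h and not at 24 h at 7497 of the sites, which is a change of call and not a measure of how much ZNF143 was lost. At 7489 sites (94.3%) all 4 unused lists had a peak. At 446 sites ZNF143 had no peak at 0 h either, so the 24 h list differs from the 0 h list there in no call. Of these, 442 did have a 0 h CTCF peak. The 446 sites had weaker peaks in every list they were described in: their median enrichment was 8.44 for wild-type ZNF143 against 11.7 at the 7497 with a 0 h peak, 18.3 against 22.3 for wild-type CTCF, 19.7 against 22.05 for wild-type RAD21, 17.1 against 21.3 for 0 h CTCF and 6.39 against 7.98 for 24 h CTCF. Only 4 CTCF-only sites had no peak in any of the 4 unused lists.

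Where the sites fall along the range of wild-type ZNF143 strength was examined by splitting all triple sites into 10 groups of like size by that enrichment. CTCF-only sites were 9.92% of the weakest group (enrichment 2.33 to 6.22) and their share was 34.5% in the fifth group, 44.0% in the seventh and 26.4% in the strongest (16.3 to 34.6). Their share was thus highest above the middle of the range, while both-factor sites took 59.5% of the strongest group and sites with neither 79.1% of the weakest.

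Within each strength group the 0 h ZNF143 shares still differed. In the weakest group 68.0% of CTCF-only sites had a 0 h ZNF143 peak (61.9 to 73.6), against 17.2% of sites with neither (15.6 to 18.9). In the fifth group the shares were 94.0% and 48.0%, and in the strongest 99.1% and 82.1%. CTCF-only sites were higher than sites with neither in 10 of 10 groups, with intervals that did not overlap in 10, and lower than both-factor sites in 10 of 10, with intervals apart in 9. With the sites with neither weighted to the CTCF-only sites' strength groups, their share was 57.9%, so the difference of 54.7 points became 36.5. Sites with a 24 h CTCF peak and no 24 h ZNF143 peak thus had a 0 h ZNF143 peak more often than sites with neither at like wild-type ZNF143 strength. The groups match that strength alone. In the weakest group 96.9% of CTCF-only sites and 64.4% of sites with neither had a 0 h CTCF peak, and in the strongest 100% and 98.4%.

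**Figure D3:**
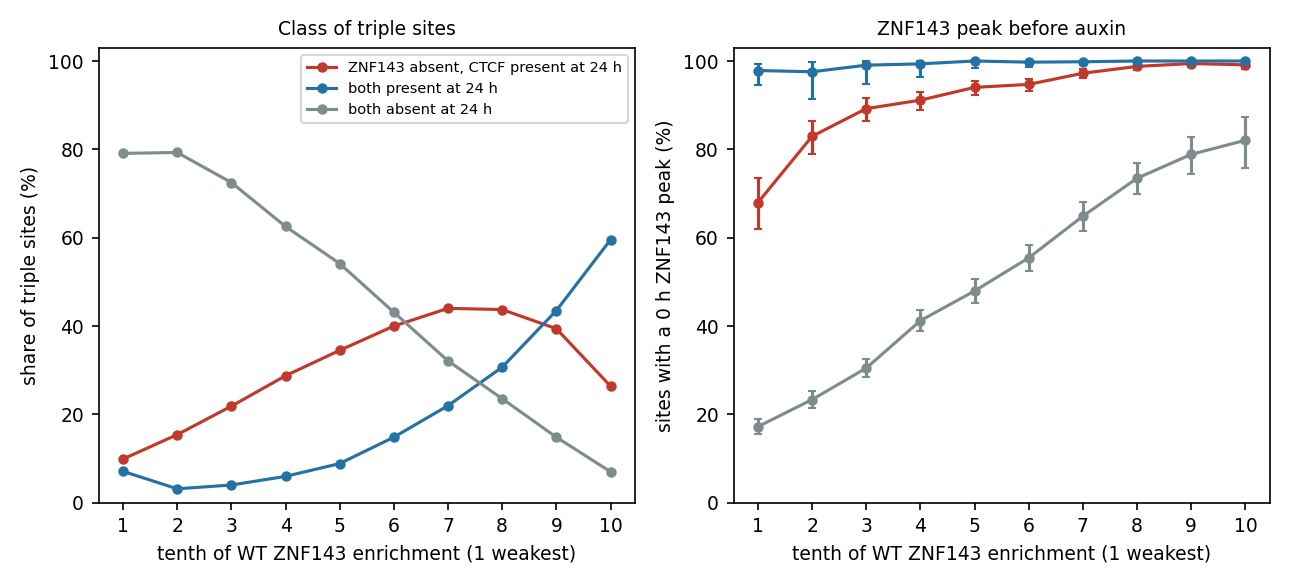
Share of each set (%) by 10 groups of wild-type ZNF143 enrichment, weakest to strongest: the makeup of each group and the share with a 0 h ZNF143 peak, with exact 95% binomial intervals. CTCF-only sites are 9.92% of the weakest group and 44.0% of the seventh, and their 0 h ZNF143 share runs from 68.0% in the weakest to 99.1% in the strongest group.

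The CTCF-AID libraries before auxin give the same picture with 0 h values as the scale. Among triple sites with a 0 h ZNF143 peak, split into 5 groups of like size by its enrichment, CTCF-only sites were 27.6% of the weakest group, 59.99% of the middle one and 19.7% of the strongest, where both-factor sites were 73.2%. Among triple sites with a 0 h CTCF peak, split likewise, CTCF-only sites were 2.19% of the weakest group, 18.9% of the second, 46.2% of the middle, 57.7% of the fourth and 42.2% of the strongest. Sites with a weak CTCF peak at 0 h were thus rarely CTCF-only, and along the 0 h ZNF143 range the share was highest in the middle.

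Sites of like residual CTCF fell in both sets that had a 24 h CTCF peak. Of all triple sites with such a peak, split into 5 groups by its enrichment, CTCF-only sites were 82.5% of the lowest group and 27.5% of the highest, which describes the choice. Inside each group, 0 h ZNF143 enrichment was lower at CTCF-only sites: the medians were 10.1 against 11.1 at both-factor sites in the lowest group, 11.1 against 15.2 in the second, 11.7 against 15.6 in the middle, 12.7 against 16.4 in the fourth and 13.9 against 17.6 in the highest. The difference in enrichment was smallest in the lowest group, where the interquartile range of both-factor sites, 4.47 to 16.1, enclosed that of CTCF-only sites, 8.31 to 12.4. The 0 h ZNF143 summit reads were far apart there, with medians of 15 at CTCF-only and 36 at both-factor sites. In that group the other lists had the opposite order: the medians at CTCF-only and both-factor sites were 10.5 and 9.89 for wild-type ZNF143, 19.5 and 16.6 for 0 h CTCF and 21.2 and 9.18 for wild-type RAD21. In the highest group 719 of 726 CTCF-only sites and all 1910 both-factor sites had a 0 h ZNF143 peak, with medians of 23 and 33 summit reads. The interquartile range there was 11.8 to 16.1 at CTCF-only sites and 15.4 to 19.9 at both-factor sites, so single sites overlapped. A 24 h ZNF143 peak needed at least 6 summit reads, and the part of the lower 0 h read number in the missing 24 h peaks was not tested.

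**Figure D4:**
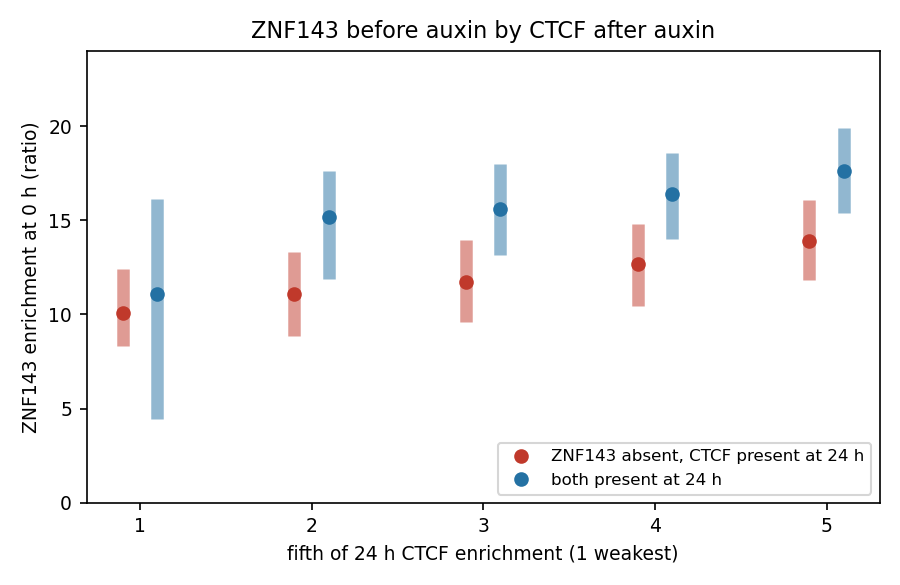
Enrichment of the 0 h ZNF143 peak (median and interquartile range) at CTCF-only and both-factor sites, by 5 groups of 24 h CTCF enrichment. The CTCF-only median is lower in each group, from 10.1 against 11.1 in the lowest to 13.9 against 17.6 in the highest.

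The overlaps that chose these sites bring the wild-type summits of the 3 proteins near each other, so their distances are a description. The wild-type ZNF143 summit lay a median of 10 bp from the wild-type CTCF summit (interquartile range 4 to 18, 7930 sites paired within 200 bp). It lay 14 bp from the RAD21 summit (6 to 25). Both medians were the same, 10 and 14 bp, at both-factor sites and at sites with neither. In CTCF-AID cells at 0 h the ZNF143 to CTCF distance also had a median of 10 bp, and wild-type and 0 h ZNF143 summits lay 9 bp apart. Summits of ZNF143 and CTCF were thus about as near each other as the ZNF143 summits of the 2 lines.

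CTCF summits of different libraries also lay close together. For the 24 h summit this describes the choice, since both CTCF peaks had to overlap the same wild-type ZNF143 peak. The wild-type summit lay a median of 7 bp from the knockout summit, 10 bp from the 0 h summit and 14 bp from the 24 h summit (interquartile range 6 to 25). At both-factor sites the wild-type to 24 h distance was 11 bp (4 to 24). The 24 h peaks at CTCF-only sites rest on 8 summit reads at the median against 13 at both-factor sites, and the part of read number in this distance was not tested.

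The CTCF to RAD21 distance had a shoulder. Its wild-type median at CTCF-only sites was 17 bp (7 to 32), and 25.4% of the sites had the summits 30 to 50 bp apart, against 30.2% of both-factor sites and 19.1% of sites with neither. In the knockout lists the median was 14 bp (6 to 30) and 21.96% lay 30 to 50 bp apart. Paired by site, the knockout distance minus the wild-type distance had a median of -1 bp (interval for the median -2 to -1, order statistics over sites). With 1 library per condition, that interval does not cover the spread between libraries. Wild-type and knockout CTCF summits themselves lay 7 bp apart at the median. The CTCF to RAD21 distance was shorter in the knockout at 52.6% of sites, longer at 44.2% and equal at 3.16%. Both-factor sites had medians of 19 bp in wild type and 15 bp in the knockout, and sites with neither 14 and 12. At CTCF-only sites 76.6% of the knockout RAD21 summits were near the read ceiling, as given above, and the part of that in the summit positions was not tested.

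**Figure D5:**
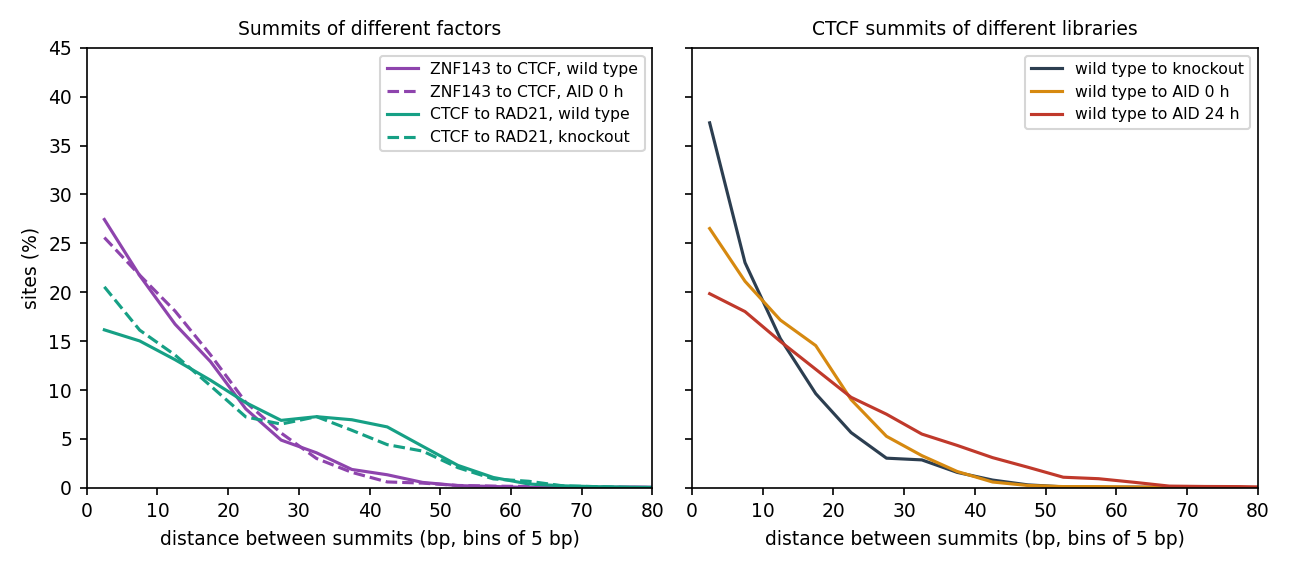
Distance between summits at CTCF-only sites (bp, share of sites per bin of 5 bp), between factors at left and between CTCF summits of different libraries at right. The CTCF to RAD21 curves have a shoulder at 30 to 50 bp that holds 25.4% of sites in wild type and 21.96% in the knockout, and the wild-type to 24 h CTCF distances (median 14 bp) are more spread than those to the knockout (7 bp).

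Seen from the CTCF summit, wild-type ZNF143 and RAD21 mostly lay on the same side. At the 4172 CTCF-only sites where RAD21 was at least 10 bp and ZNF143 at least 5 bp from CTCF, they shared the side at 79.2% (exact 95% interval 78.0 to 80.4), against 81.7% of both-factor sites and 74.5% of sites with neither. Where they shared the side at CTCF-only sites, the median offset was 16 bp for ZNF143 and 31 bp for RAD21, and ZNF143 was the nearer at 84.7%. Both offsets start from the same CTCF summit, however, so an error in that summit moves them together. With RAD21 taken from the knockout RAD21 and CTCF libraries, so that no library was used for both directions, the share was 69.6% (68.1 to 71.1). With ZNF143 also taken from the 0 h ZNF143 and CTCF libraries, again with no shared library, it was 52.7% (51.0 to 54.3). The same measure for the direction from the 0 h to the 24 h CTCF summit against the knockout RAD21 direction was 53.2% (51.7 to 54.8), and for wild-type to knockout against 0 h to 24 h CTCF summits 51.04%. With each direction from libraries of its own, the share for ZNF143 and RAD21 thus depended on the ZNF143 and CTCF libraries used. It was 69.6% with those of wild type and 52.7% with those of 0 h. Only the 0 h share was no higher than that of the 24 h CTCF direction with RAD21. The cause of this difference was not tested.

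The 5 CTCF-only sites of highest wild-type ZNF143 enrichment show how far the 24 h CTCF peak can vary. Positions are 1-based on hg19, and the genes and sequence at them were not analysed here. The first, chr3:126471203-126471302, had an enrichment of 24.7 for wild-type ZNF143 with 32 summit reads, and in CTCF-AID cells 19.96 for ZNF143 at 0 h with 34 reads, 23.3 for CTCF at 0 h with 57 reads and 6.75 for CTCF at 24 h with 7 reads. The nearest 24 h ZNF143 peak lay 48017 bp away. It is a site with a large ZNF143 peak in both untreated lines and a 24 h CTCF peak of below-median enrichment.

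At chr5:43105900-43106061 the values were 23.7 for wild-type ZNF143, 19.9 for 0 h ZNF143 with 36 reads, 20.5 for 0 h CTCF with 88 reads and 26.1 for 24 h CTCF with 42 reads. This site also had the most significant 24 h CTCF peak of all CTCF-only sites, at a deposited −log10 q of 53.7, and its nearest 24 h ZNF143 peak lay 14870 bp away. It thus had a large CTCF peak after auxin and no ZNF143 peak. The other 3 had smaller 24 h CTCF peaks: enrichment was 6.48 with 7 reads at chr3:149111267-149111383, 9.99 with 11 reads at chr19:48317098-48317181 and 4.57 with 4 reads, the least any listed peak had, at chr19:18279102-18279214. Their 0 h ZNF143 enrichment was 11.8, 12.8 and 13.3, with 20, 23 and 23 reads.

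The remaining sites complete the 5 with the highest 24 h CTCF −log10 q. At chr10:135523286-135523511, 24 h CTCF enrichment was 22.6 with 36 reads and 0 h ZNF143 18.4 with 42 reads, and a 24 h ZNF143 peak lay 957 bp away. At chr11:74959798-74959951 they were 23.4 with 33 reads and 20.99 with 33 reads. At chr1:86965800-86965945 they were 20.2 with 35 reads and 11.3 with 17 reads. All 5 sites had 88 reads at the 0 h CTCF summit, the ceiling of that list, and between 32 and 42 reads at 24 h. At chr19:46386751-46386845 the 24 h CTCF value was 21.3 with 32 reads and the 0 h ZNF143 value 5.58 with 34 reads, a low enrichment over many reads.

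For comparison, the 2 both-factor sites of highest wild-type ZNF143 enrichment were chr4:104020963-104021149 and chr1:147553615-147553724, at 34.6 and 32.8. At 24 h their ZNF143 peaks had enrichments of 27.3 with 50 reads and 18.1 with 27 reads, and their CTCF peaks 5.43 with 5 reads and 24.0 with 36 reads. The first had its CTCF summit 97 bp from the ZNF143 summit in wild type, farther than at nearly all CTCF-only sites, of which 99.2% had the 2 summits within 50 bp. The strongest site with neither factor at 24 h that is placed here, chr7:149007409-149007557, had 29.1 in the wild-type ZNF143 list, 18.7 with 31 reads in the 0 h ZNF143 list and 18.4 with 31 reads in the 0 h CTCF list. A site of this set on chromosome 8 followed with 28.2. Some sites outside the CTCF-only set therefore had stronger wild-type ZNF143 peaks than any inside it.

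Few CTCF-only sites had a 24 h CTCF peak close to the lowest −log10 q of its list, or a listed 24 h ZNF143 peak close by. The fewest summit reads of a listed 24 h ZNF143 peak were 6, and more are needed over a higher local background. Signal too weak to be listed was not measured, nor how near CTCF-only sites came to a listed peak in strength. The set also depends on the overlap rule and on list length: 2660 sites met the rule with at least 50% of both peaks, and 2729 with lists of equal length. The 24 h CTCF peak had a −log10 q under 3.5 at 86 CTCF-only sites, under 4 at 183 and under 5 at 631 (7.94%), with a lowest value of 3.01. On the other side, the 24 h ZNF143 peak had a −log10 q under 3.5 at 39 both-factor sites, under 4 at 87 and under 5 at 421 (8.06%), with a lowest value of 3.02. A 24 h ZNF143 peak lay within 50 bp of 15 CTCF-only sites, within 200 bp of 53 and within 1000 bp of 196, while the median gap was 51704 bp. Most CTCF-only sites were thus far from any remaining ZNF143 peak.

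The closest cases were chr19:49711693-49711769, 4 bp from a 24 h ZNF143 peak, and chr10:27150211-27150245, 14 bp from one. At the second, the 0 h ZNF143 peak was 407 bp wide with its summit 190 bp from the wild-type one, so a broad neighbouring peak covered it. The overlap with the 24 h CTCF peak was at most 5 bp at 39 sites, at most 10 bp at 86 and at most 20 bp at 353. It was 1 bp at chr1:45259511-45259564, where the 24 h CTCF peak had 4 summit reads, and at chr14:22942118-22942154, where it had 6. Members share few peaks: the 7943 sites lie on 7928 wild-type CTCF, 7933 wild-type RAD21 and 7937 24 h CTCF peaks, and 8 of them share a wild-type CTCF peak with a both-factor site.

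CTCF-only sites were spread over the chromosomes. Their share of triple sites ran from 24.2% on chromosome 16 (exact 95% interval 21.5 to 27.0) to 34.3% on chromosome 14 (31.0 to 37.7), around 30.4% in all. Both-factor sites varied more, from 6.995% on chromosome 4 and 8.31% on X to 27.5% on chromosome 19. The median wild-type ZNF143 enrichment of CTCF-only sites was lowest on chromosomes 4 and X, at 8.61 on each, against 12.6 on chromosome 19. The part of ZNF143 strength in these shares was not tested. On chromosome 4, 285 of 872 triple sites were CTCF-only (32.7%), and on X 237 of 758 (31.3%).

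Nearby triple sites were less common around CTCF-only sites than around both-factor sites. Another triple site lay within 10 kb of 27.5% of CTCF-only sites, 41.5% of both-factor sites and 24.4% of sites with neither, and within 1 kb of 3.36%, 11.4% and 2.74%. The median distance to the nearest triple site was 24167 bp, 14217 bp and 28456 bp. Where a neighbour lay within 10 kb of a CTCF-only site it was CTCF-only too in 35.6% of cases, against 30.4% of triple sites in all. At both-factor sites the nearest neighbour within 1 kb was another both-factor site in 63.9%, and at CTCF-only sites it was CTCF-only in 37.1%.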

How the data were processed

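The 9 peak lists, 1 library per group, were used as deposited, in the narrow-peak layout. Genome build GRCh37 (hg19) and the tools cutadapt 2.10, Bowtie2 2.3.5.1, SAMtools 1.12, MACS2 2.2.7.1 and deepTools are named in the submitters' processing notes, which give no settings. The authors deposited a fold enrichment (a ratio), a −log10 p and a −log10 q for each peak. No peak had a −log10 q under 5.00 in the knockout lists, whereas the others reach down to between 3.00 and 3.02. Groups come from the sample titles.

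Overlap was at least 1 bp, and summits were paired within 200 bp. Total reads are not given in the sources used here. Summit and background reads were solved from enrichment and −log10 p as in MACS2, adding 1 to both, which is an assumption, and whole numbers gave −log10 p within 0.01 for 100% of peaks in every list. The most reads at any summit equalled 2 times the shortest peak width in each list. Intervals are exact (Clopper-Pearson) or Newcombe 95% intervals and cover counting error only. The code ran in Python 3.11.15 with scipy 1.17.1, pandas 2.3.3, numpy 2.4.6 and matplotlib 3.10.9, and was tested on simulated data.

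The sites, comparisons and lists were chosen with earlier results of these data known. Named sites are the 5 of highest wild-type ZNF143 enrichment, the 5 of highest 24 h CTCF −log10 q, the 2 strongest of each compared set, and the 2 nearest each edge of the rule. Sequence motifs and gene starts were not analysed here, as no genome or annotation of build hg19 was used. Alternatives were an overlap of 50% of both peaks, a −log10 q of at least 5, the stronger part of the sites, weighting by strength, a smaller pairing distance and lists of equal length.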

Additional observations from a re-analysis of the deposited data

Results flagged for a closer look

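Peaks outside chromosomes 1 to 22 and X took no part in the comparisons, and some of them meet the same rule of wild-type overlap, no 24 h ZNF143 peak and a 24 h CTCF peak. On chromosome Y 9 of 179 wild-type ZNF143 peaks met it (5.03%). On mitochondrial and unplaced sequences 20 of 262 did (7.63%), of which 0 of the 7 mitochondrial peaks. On chromosomes 1 to 22 and X the share was 21.6%. These peaks are given because they lie outside the data compared. The cells come from a uterus, so no chromosome Y would be expected in them. The source of the peaks listed on it was not tested. No level was predicted for the mitochondrial and unplaced sequences. No control library is among the lists used, so the level of such peaks without ZNF143 at these places was not measured.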

How the results depend on the processing

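Of 55 alternative values for 10 results, 32 stayed within their interval or within 1.5 times the count, 23 moved and 0 changed sign, and the summit distances stayed under every alternative tried. With an overlap of at least 50% of both peaks, 2660 sites met the rule, of which 94.9% had a 0 h ZNF143 peak, 17.0% a 0 h CTCF peak, 70.2% a knockout CTCF and 39.2% a knockout RAD21 peak. The 0 h ZNF143 share was then -0.14 points from both-factor sites (-1.38 to 1.14) and 41.3 points above sites with neither. The 0 h CTCF peaks at these sites are wider (median 220 bp) than the ZNF143 peaks (73 bp), so that few such pairs can share 50% of both. With a −log10 q of at least 5 the difference from sites with neither was 52.9 points. Among triple sites above the median wild-type ZNF143 enrichment there were 5047 sites, with shares of 97.8%, 99.98%, 100% and 99.98% in the same 4 lists and differences of -2.19 and 31.7 points. With compared sites weighted by strength the second was 36.5 points. With every list held to its 13865 strongest peaks, an alternative chosen after seeing the data, 2729 sites remained in the set, with shares of 71.5%, 97.1%, 74.8% and 58.3% and differences of -26.5 and 49.2 points. The causes were not tested. Counts of motifs and of nearby gene starts were not run, since no hg19 genome or annotation was used here. No paired analysis was possible because each group holds 1 library. A library of 3.88 background reads per kb limits the 24 h CTCF list, so sites counted as lacking CTCF at 24 h may hold CTCF too weak to be listed. The fewest summit reads of a peak in that list were 4.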
